A study of Mus musculus with 9 samples.

Results

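The 46 genes described here encode the machinery of S phase and DNA replication: the proteins that license origins, the replicative helicase, the polymerases with their sliding clamp, the enzymes that supply deoxynucleotides, and the E2F and cyclin E regulators that switch these genes on. They were chosen by symbol for these roles, and all 46 were found among the 27179 genes of the deposited table, each in 1 row. The labels name wild-type C57BL/6J mice. All 9 received an AAV8 vector into the retro-orbital sinus at 17 months of age (3e11 vector genomes per mouse), and a piece of the liver m-lobe was frozen 3 weeks later for bulk sequencing of polyadenylated RNA. In both groups the vector carried saCas9, the compact Cas9 of Staphylococcus aureus, driven by the TBG promoter, whose activity is largely limited to hepatocytes. A U6-driven guide RNA was directed at the Rosa26 locus in the control group (sgRosa26, n = 4) and at Ccnd1, the cyclin D1 gene, in the other group (sgCcnd1, n = 5), so that the controls carried vector and nuclease too. Nuclease expression is thus aimed at hepatocytes while the RNA came from the whole tissue, and fewer cells of a type cannot be told apart from less RNA per cell. The labels give neither the sex nor a batch, and nothing in them says more of the replicates than that they are separate mice. Letters name the libraries in the order of the table's columns, with A, B, C and D from sgRosa26 mice and E, F, G, H and I from sgCcnd1 mice.

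In the textbook account, cyclin D with CDK4 or CDK6 begins to phosphorylate the retinoblastoma protein, which releases the activating factors E2F1, E2F2 and E2F3. These factors induce cyclin E, the replication genes, and also E2F7 and E2F8, a pair of atypical E2F proteins that bind the same sites and repress them in a feedback loop. Hepatocytes of the adult liver are mostly quiescent, and E2F7 and E2F8 are known there for their part in the polyploidy of hepatocytes.

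Each library held between 10840595 and 20176201 gene-assigned reads. Ccnd1 itself stood at 744 ± 110 normalized counts in sgRosa26 (SD, n = 4) and at 362 ± 40.6 in sgCcnd1 (SD, n = 5), with all 5 sgCcnd1 libraries below every control (log2 fold change -1.03, limma adjusted p = 0.0116). With 1 library left out its log2 fold change stayed between -1.11 and -0.96, but the adjusted limma test was missed when the library left out was B, D, F, H or I (adjusted p from 0.0559 to 0.0852). DESeq2 on recovered reads gave it an adjusted p of 9.13e-12. The Rosa26 transcript Gt(ROSA)26Sor was at 114 ± 29.5 and 116 ± 11.5. Albumin, the defining hepatocyte transcript, averaged 1.53e+06 normalized counts in sgRosa26 and 1.50e+06 in sgCcnd1. In library H the Y-linked gene Ddx3y had 2.00 normalized counts, against 810 to 1154 in the other 8, and H was also the library with the highest E2f8 level and the lowest T and NK cell score. Values without H are given for the replication genes with an unadjusted p under 0.05.

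A feature of many of these genes is a binding word for E2F proteins close to the start of transcription. The RefSeq promoter sequences (build GRCm38.p6, 250 bases before to 50 bases after each start) covered 39 of the 46 genes and 27025 genes in all. They were searched on both strands for the 7-letter words TTCCCGC and TTGGCGC, which read GCGGGAA and GCGCCAA on the other strand. Matches on opposite strands may share letters and were then counted separately. At least 1 word was present in 24 of the 39 genes (61.5%), against 7.79% of all genes. Promoters of the list were richer in G and C (median 62.2% against 52.7%), and among the 9519 promoters in their interquartile range of G and C content 10.8% held a word. Counted by promoter, since a gene can have several, 25 of the list's 46 promoters (54.3%) held one, against 6.81% of all 32851. The following stretches of 60 bases, each lying before the start and read 5′ to 3′ on the gene's own strand, are examples from genes named below. The capitals mark the words.

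E2f8 (chr7:48881674-48881733, minus strand): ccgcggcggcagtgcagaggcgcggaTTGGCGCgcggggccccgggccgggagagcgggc
E2f7 (chr10:110745321-110745380, plus strand): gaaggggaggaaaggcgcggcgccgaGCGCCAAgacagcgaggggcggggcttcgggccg
Pola1 (chrX:93632267-93632326, minus strand): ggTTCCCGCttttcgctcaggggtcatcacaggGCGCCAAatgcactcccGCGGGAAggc
Mcm5 (chr8:75109326-75109385, plus strand): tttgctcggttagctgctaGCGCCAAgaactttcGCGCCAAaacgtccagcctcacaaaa
Mcm6 (chr1:128359718-128359777, minus strand): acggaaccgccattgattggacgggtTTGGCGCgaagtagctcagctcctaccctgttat
Mcm10 (chr2:5012792-5012851, minus strand): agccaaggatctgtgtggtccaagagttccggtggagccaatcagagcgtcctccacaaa

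The stretch of Pola1 holds 3 words, of 4 in its window, and that of Mcm5 holds 2. The single word of E2f8 ends 105 bases before the start. E2f7 has 3 words and Mcm6 has 2 before the start, and the stretch shown holds 1 of them in each case. Mcm10 has no word in its window, and the 60 bases nearest its start are shown. By role, a word was present in 5 of 8 helicase genes, 6 of 9 polymerase and clamp genes, 5 of 7 E2F and cyclin E genes, 4 of 5 chromatin genes, 2 of 4 licensing genes, 1 of 4 nucleotide genes and 1 of 2 strand-joining genes. A word describes these letters only, and says nothing of a bound factor in these livers.

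The genes were present at low and very unequal levels. Normalized counts are reads divided by a size factor for each library, so a value near 1 is about 1 read. Over the 9 libraries, 27 genes averaged 50 normalized counts or more and are called well measured, 14 lay between 10 and 50 and are called low, and 5 had a mean under 10 and were left out of the test: Orc1, Cdc6, Gins2, Ccne1 and Ccne2. The filter uses the mean of all libraries, and the genes beside it were Ccne2 (mean 9.05) just outside and E2f7 (mean 10.3) and Uhrf1 (mean 11.9) just inside.

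**Figure D1:**
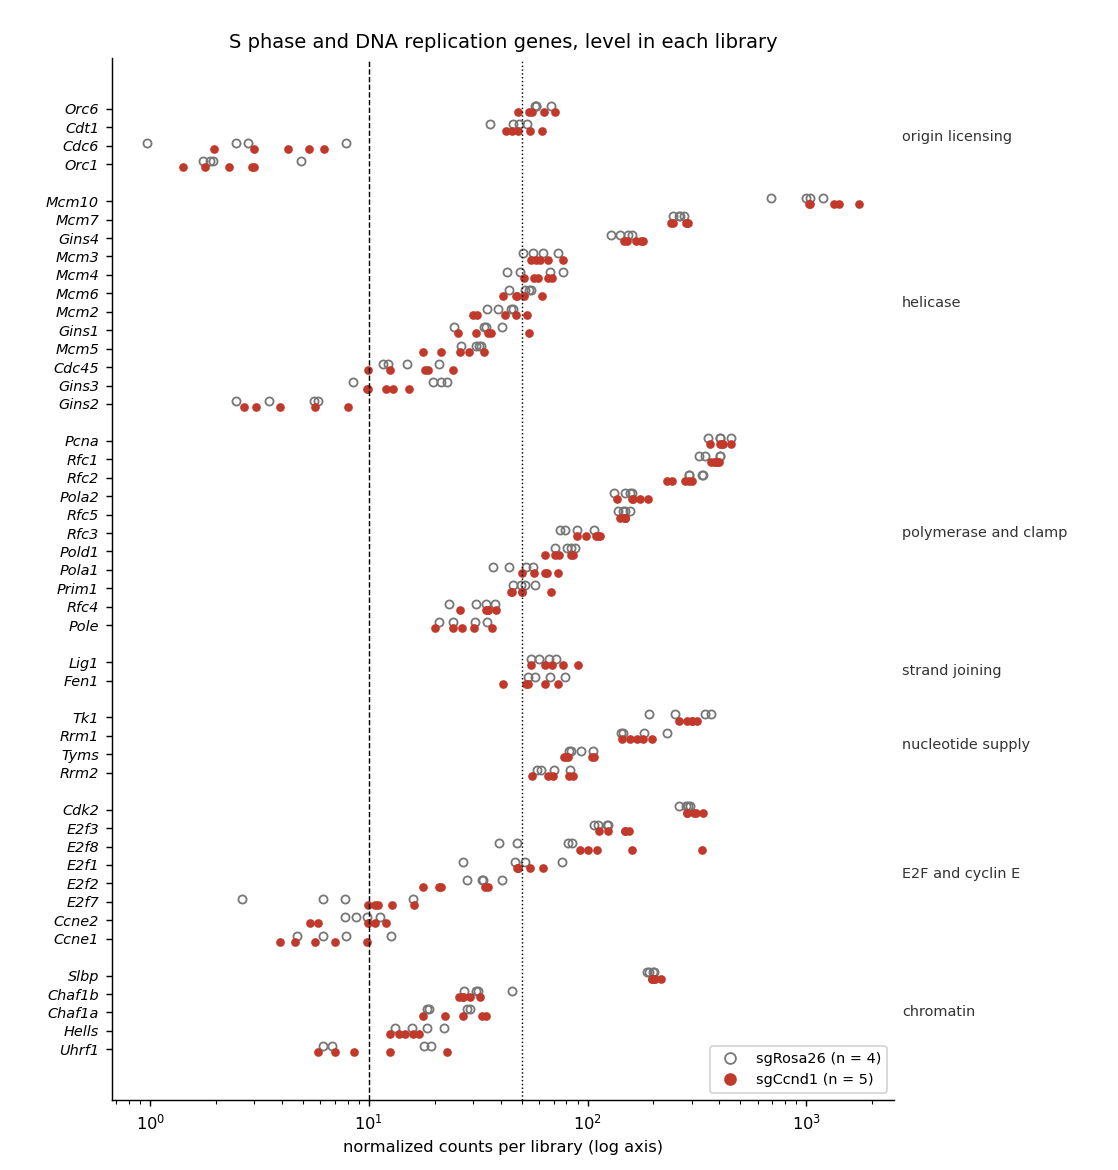
Normalized counts of each of the 46 genes in each library (log axis), with sgRosa26 as open circles and sgCcnd1 as filled circles, ordered by role and by mean level. The dashed line is the minimum mean of 10 for testing and the dotted line is 50. The groups overlap in each row except that of E2f8.

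Per kilobase of the longest annotated transcript, Pcna, the sliding clamp that holds polymerases on DNA, had the highest level of the list at 268 normalized counts per kb. Mcm10, a factor that helps to activate the helicase, followed at 239 per kb. Tk1, the salvage kinase for thymidine, was at 117 per kb, and Gins4, a subunit of the helicase complex, was at 115 per kb. At the other end, Orc1 and Cdc6, which load the helicase onto origins, were at 0.808 and 0.809 per kb, and Gins2 was at 1.16 per kb. Subunits of one complex had transcripts at very different levels per kb. In the MCM ring, Mcm7 was at 89.7 per kb and the other 5 lay between 8.17 (Mcm5) and 18.2 (Mcm3). Among the GINS subunits, the values per kb were 115 for Gins4, 32.2 for Gins1, 5.83 for Gins3 and 1.16 for Gins2.

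Some of these levels can hold reads of other sequences. Transcripts of processed pseudogenes align over at least 400 bases, with an identity of 90% or more, to Cdc6, Mcm4, Mcm7, Pcna, Rfc5, Rrm2, Tyms and Uhrf1. The alignment to Pcna-ps2 reached 99.2% identity over 781 bases and that of Mcm7 to Gm5487 reached 97.7% over 2157 bases. Exons of 18 of the 46 genes overlap those of another gene, and the use of strand in counting is not given in the sources used here. The longest overlap was that of Chaf1a with Ubxn6, at 4648 bases. E2f8 overlaps the opposite-strand transcript Gm2788 by 610 bases, while Mcm10 and Pola1 have no such overlap. Values of these genes are uncertain to that extent.

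To ask whether the program changed with the Ccnd1 guide, each gene was tested in a fit over all 12993 genes that averaged 10 or more, on log2(normalized count + 1). Fold changes are on that scale, which understates changes of low genes. Of the 41 genes of the list that were tested, 0 were higher and 0 lower at a limma p under 0.05 adjusted over all genes. Among all genes tested, 0% were higher and 0.00770% were lower, the latter being Ccnd1 alone. The smallest adjusted p in the list was 0.282. At an unadjusted limma p under 0.05, 3 of the 41 were higher (E2f8, Mcm10 and Pola1) and 0 were lower, against 5.22% higher and 5.74% lower of all genes tested. On recovered reads, edgeR's quasi-likelihood test called 0 of the 41 after adjustment. DESeq2 called 0 of the 36 for which it gave an adjusted p, and gave none for the other 5, while over all genes it called 41 higher and 76 lower. The median log2 fold change of the 41 was 0.06, with 24 genes above 0 and 17 below (58.5% above), and over all genes tested it was 0.01, with 52.9% above 0.

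The intervals show how large a change these libraries could have missed. The 95% confidence interval of the log2 fold change lay within 1 log2 unit of 0 for 37 of the 41 genes, 90.2%, against 91.8% of all genes tested. The 4 exceptions were E2f8, E2f7, Gins3 and Uhrf1. Of these, E2f8 alone belongs to the well-measured class, in which 26 of 27 intervals met that bound. The point estimate was within 0.25 log2 units of 0 for 33 genes.

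**Figure D2:**
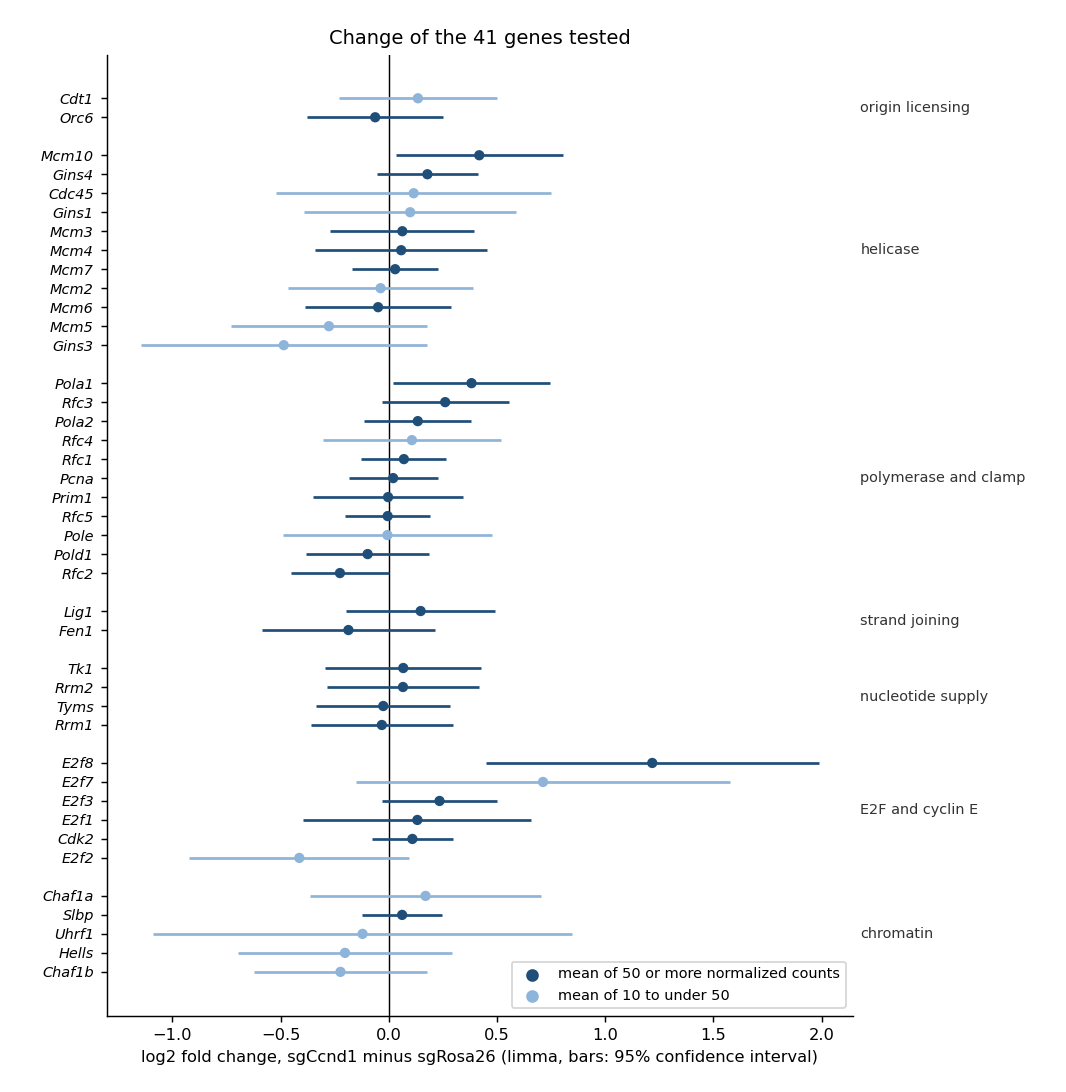
Log2 fold change (sgCcnd1 minus sgRosa26) of the 41 genes tested, with 95% confidence intervals, by role. Dark points are well measured and light points are low. Intervals of E2f8, Mcm10 and Pola1 lie above 0 before any adjustment, and the others include 0.

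The medians differed in sign between well-measured and low genes. The 27 well-measured genes had a median log2 fold change of 0.06 (18 above 0, 9 below) and the 14 low genes one of -0.02 (6 above, 8 below). All genes tested showed the same order, with 0.03 for the 10411 genes of at least 50 normalized counts and -0.13 for the 2582 below. For neither class did a gene pass the adjusted test. The classes use the mean of all libraries, and Pola1 is well measured through its level in sgCcnd1, since its control mean of 47.5 lies under 50.

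The E2F and cyclin E genes had a median log2 fold change of 0.18 over the 6 of 8 tested. E2f7 is among the 6 through its level in sgCcnd1, since its control mean of 8.13 lies under the filter, whereas Ccne1 and Ccne2 fell short of it. With no filter the median of all 8 was 0.12, and without library B that of the tested genes was 0.28, so the median is given as a description only. E2f8, one of the atypical E2F repressors, had the largest difference of all 41 genes. Its normalized counts were 39.3, 47.3, 84.5 and 81.6 in A to D, whereas E to I had 110.5, 92.2, 159.6, 335 and 100.8. Every sgCcnd1 value lay above every control, with library H far above the rest and A and B well below the other controls. The means were 63.2 ± 23.2 in sgRosa26 (SD, n = 4) and 159.6 ± 101.4 in sgCcnd1 (SD, n = 5). On the log2 scale the groups differed by 1.22 (standard error 0.35, 95% interval from 0.45 to 1.99).

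This difference did not pass the adjustment over all genes (limma adjusted p = 0.282, unadjusted p = 0.00475, the 219th smallest of the 12993). The exact two-sided permutation test of this single gene gave p = 0.0159, where 0.00794 is the smallest that 4 against 5 libraries allow. Of the 41 genes, E2f8 alone had groups that did not overlap, with 1 higher and 0 lower, against 1.92% higher and 1.97% lower (3.89% in either direction) of all genes tested. Without library H the log2 fold change of E2f8 was 0.91 (limma unadjusted p = 0.00479, adjusted p = 0.484). In each of the 20 alternatives the value stayed above 0, between 0.86 and 1.38, with unadjusted p-values of 0.00136 to 0.0172 and adjusted p-values of 0.156 to 0.580. The gene lies at chr7:48866429-48881596 on the minus strand (GRCm38, GENCODE).

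E2f7, the other atypical member, was scarce, with 6.15, 2.63, 16.0 and 7.77 normalized counts in A to D and 10.7, 16.1, 12.7, 10.995 and 9.93 in E to I. Only 3 to 18 reads per library lie behind these values, and the groups overlapped because of library C. Its log2 fold change was 0.71 with a 95% interval from -0.15 to 1.58 (limma adjusted p = 0.533). The activators showed no common direction. E2f3 was at 116 ± 8.49 in sgRosa26 (SD, n = 4) and 138 ± 18.6 in sgCcnd1 (SD, n = 5), with 3 of 5 sgCcnd1 libraries above all controls (log2 fold change 0.23, limma adjusted p = 0.508). E2f1 ranged from 27.1 to 76.3 in the controls, a wider span than the 47.4 to 62.5 of sgCcnd1, and its log2 fold change was 0.13 (limma adjusted p = 0.879). E2f2 was at -0.41 (limma adjusted p = 0.536), with 3 of 5 sgCcnd1 libraries below all controls.

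**Figure D3:**
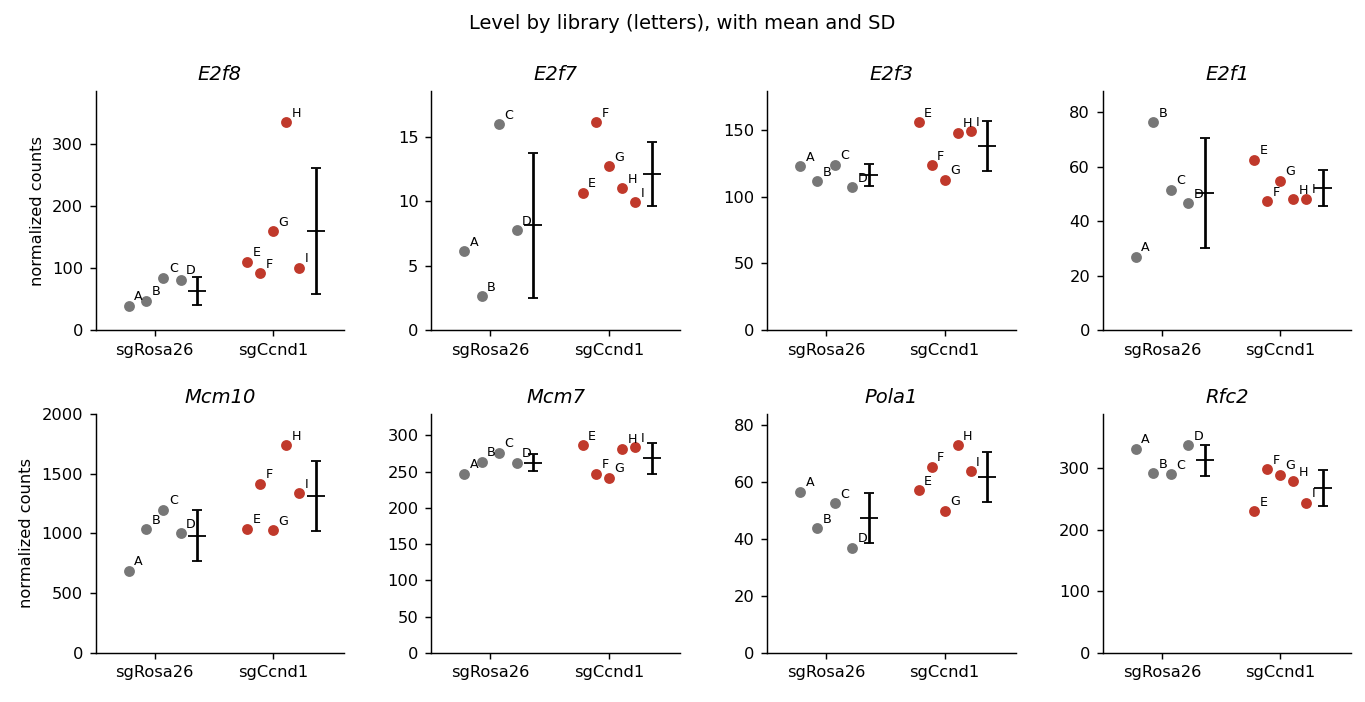
Normalized counts by library (letters) for 4 E2F genes and for Mcm10, Mcm7, Pola1 and Rfc2, each from 0 on a linear axis, with the mean and SD of each group. In E2f8 the lowest sgCcnd1 value, 92.2 in F, lies above the highest control, 84.5 in C, and library H is the highest for E2f8, Mcm10 and Pola1.

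The cyclin E genes, which act with the kinase CDK2 at the start of S phase, were near the floor. Ccne1 had 4.69 to 12.6 normalized counts in the controls and 3.92 to 9.85 in sgCcnd1, and Ccne2 had 7.77 to 11.3 and 5.37 to 12.0. Between 4 and 14 reads per library lie behind these values. In the fit with no filter on low values, limma gave unadjusted p-values of 0.445 for Ccne1 and 0.661 for Ccne2, and adjusted p-values of 0.820 to 0.972 for the 5 genes under the filter. Cdk2 itself was abundant, at 283 ± 14.1 in sgRosa26 (SD, n = 4) and 305 ± 21.1 in sgCcnd1 (SD, n = 5), with a 95% interval of the log2 fold change from -0.08 to 0.30 (limma adjusted p = 0.665).

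Of the 12 helicase genes, 11 were tested, with a median log2 fold change of 0.06 (7 above 0, 4 below). Mcm10 had 689, 1036, 1198 and 1002 normalized counts in A to D and 1041, 1417, 1026, 1739 and 1336 in E to I. Library A is the lowest and H the highest, and 3 of 5 sgCcnd1 libraries lie above all controls. Its log2 fold change was 0.42 with a 95% interval from 0.03 to 0.80 (limma unadjusted p = 0.0362, adjusted p = 0.418; exact permutation p = 0.0873). The unadjusted p was under 0.05 in 12 of 20 alternatives. Leaving out library A gave 0.26 (limma unadjusted p = 0.132) and leaving out H gave 0.31 (limma unadjusted p = 0.0911), and the p was also above 0.05 without D, F or I and with quantile normalization (0.0532).

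The MCM ring genes Mcm2 to Mcm7, which form the motor of the helicase, had a median log2 fold change of -0.0042. Mcm7 ranged from 247 to 276 normalized counts in the controls and from 242 to 287 in sgCcnd1, with a 95% interval of the log2 fold change from -0.17 to 0.23. Mcm3 (50.7 to 73.6 in the controls, 55.0 to 77.0 in sgCcnd1) and Mcm4 (42.7 to 77.0, then 51.0 to 68.6) had log2 fold changes of 0.06 each. Mcm6 (43.7 to 55.2, then 40.98 to 61.7) was at -0.05 and Mcm2 (34.7 to 45.5, then 30.0 to 52.6) at -0.04. Mcm5 was lowest at -0.28, with 26.3 to 32.4 normalized counts in the controls and 17.6 to 33.5 in sgCcnd1 (limma adjusted p = 0.651). The groups overlapped for all 6, and the signs of Mcm2, Mcm3, Mcm4 and Mcm6 changed in some alternatives.

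Cdc45 and the GINS genes encode the partners that complete the active helicase. Gins4 was at 145 ± 13.8 in sgRosa26 (SD, n = 4) and 164 ± 14.4 in sgCcnd1 (SD, n = 5) (log2 fold change 0.18, limma adjusted p = 0.562). Gins3 had the lowest value of the whole list, -0.49 (limma adjusted p = 0.577), with 19.7, 22.8, 8.45 and 21.4 normalized counts in A to D and 9.79 to 15.2 in sgCcnd1. Control C lies below all 5 sgCcnd1 libraries while the other 3 controls lie above them. Without C the log2 fold change of Gins3 was -0.79 (limma unadjusted p = 0.00924, adjusted p = 0.344). That was the 1 of 18 alternatives with an unadjusted p under 0.05. With 1 library left out, its log2 fold change ran from -0.79 to -0.35. Cdc45 (11.7 to 21.0 in the controls, 9.91 to 24.1 in sgCcnd1) had a log2 fold change of 0.12, and Gins1 (24.6 to 40.79, then 25.5 to 53.7) one of 0.099. Gins2 had 2 to 8 reads per library, with an unadjusted limma p of 0.880 without the filter.

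For the 4 origin licensing genes the test reached only Cdt1 and Orc6. Cdt1, which brings the MCM ring to origins, was at 45.8 ± 7.22 in sgRosa26 (SD, n = 4) and 50.4 ± 7.77 in sgCcnd1 (SD, n = 5) (log2 fold change 0.13, limma adjusted p = 0.795). Orc6, a subunit of the origin recognition complex, was at 60.7 ± 5.15 and 58.4 ± 8.67 (log2 fold change -0.06, limma adjusted p = 0.908). Cdc6 had 1 to 9 reads and Orc1 had 1 to 4 reads per library, and their unadjusted limma p-values without the filter were 0.456 and 0.797.

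All 11 polymerase and clamp genes were tested, with a median log2 fold change of 0.02 (6 above 0, 5 below). Pola1, the catalytic subunit of the polymerase that starts each strand together with primase, had 56.6, 43.8, 52.6 and 36.9 normalized counts in A to D and 57.2, 65.4, 49.9, 73.0 and 63.9 in E to I. In 4 of 5 sgCcnd1 libraries it lay above all controls, and G was the exception. Its log2 fold change was 0.38 with a 95% interval from 0.02 to 0.75 (limma unadjusted p = 0.0408, adjusted p = 0.433; exact permutation p = 0.0556). The unadjusted p was under 0.05 in 8 of 19 alternatives. It was above with B, D, F, H or I left out (limma p from 0.0697 to 0.135), with no filter (0.0550), with 75th percentile rescaling (0.0505), in edgeR (0.0508) and in DESeq2 (0.0619). Without H the log2 fold change of Pola1 was 0.32. Pola2, its accessory subunit, was at 0.13 (limma adjusted p = 0.685), and Prim1, the primase that lays down the RNA primer, was at -0.0032.

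The 5 subunits of the clamp loader RFC did not share a direction. Rfc2 was at 313 ± 25.3 in sgRosa26 (SD, n = 4) and 268 ± 29.8 in sgCcnd1 (SD, n = 5), with 4 of 5 sgCcnd1 libraries below all controls (log2 fold change -0.23, limma unadjusted p = 0.0508, adjusted p = 0.454). Rfc3 was at 87.5 ± 14.3 and 105 ± 10.6, with 3 of 5 above all controls (log2 fold change 0.26, limma adjusted p = 0.504). Rfc5 varied little, with 146 to 157 in B, C and D, 138 in A, and 141 to 148 in sgCcnd1. Rfc1 and Rfc4 had log2 fold changes of 0.07 and 0.11. The clamp Pcna was at 404 ± 39.5 and 409 ± 32.0 normalized counts, with a 95% interval of the log2 fold change from -0.19 to 0.23 (limma adjusted p = 0.955). Pold1 and Pole, the catalytic subunits for the lagging and the leading strand, were at -0.098 and -0.0062.

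The genes of the enzymes that supply deoxynucleotides had point estimates near 0. The 4 log2 fold changes ran from -0.03 (Rrm1) to 0.07 (Tk1), with a median of 0.02. Tk1 was at 288 ± 81.7 in sgRosa26 (SD, n = 4) and 292 ± 19.8 in sgCcnd1 (SD, n = 5). Its controls spanned 191 (A) to 366 (B), which encloses the whole range of sgCcnd1, 263 to 315. Rrm1, the large subunit of ribonucleotide reductase, ranged from 143 to 231 in the controls, with A highest, and from 144 to 197 in sgCcnd1. Its partner Rrm2 (59.0 to 83.5, then 56.0 to 85.9) and the thymidylate synthase gene Tyms (82.6 to 106, then 78.3 to 107) overlapped over nearly their whole range. The limma adjusted p was 0.914 or above for each of the 4.

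Fen1, which trims the flaps of lagging-strand fragments, and Lig1, which joins them, pointed in opposite directions at -0.19 (limma adjusted p = 0.732) and 0.15 (limma adjusted p = 0.756). Among the chromatin genes the median was -0.12 over 5 (2 above 0, 3 below). Slbp, which binds the stem-loop of histone mRNA, was at 195 ± 7.34 in sgRosa26 (SD, n = 4) and 203 ± 7.996 in sgCcnd1 (SD, n = 5) (log2 fold change 0.06, limma adjusted p = 0.822). Chaf1b, a subunit of the histone chaperone CAF-1, had the largest difference of this group (log2 fold change -0.22, limma adjusted p = 0.677). Its partner Chaf1a was at 23.6 ± 5.78 and 26.9 ± 7.04 normalized counts, and Hells, a chromatin remodeller, at 17.4 ± 3.84 and 14.8 ± 1.78 (limma adjusted p = 0.833 and 0.766). Uhrf1, which guides maintenance methylation to new DNA, varied within both groups, from 6.15 to 19.3 in the controls and from 5.87 to 22.9 in sgCcnd1.

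Relative to counting error, the spread between animals was largest for Mcm10 and E2f8. For each gene the variance of its reads within the groups was divided by the variance that counting alone would give. The median of this ratio was 1.73 over the 41 genes and 2.53 over all tested genes with a mean under 500, and it was under 2 for 27 of the 41. It was 40.82 for E2f8 and 58.7 for Mcm10, followed by 9.96 for Tk1 and 5.53 for Rrm1. This ratio grows with the level of a gene, and Mcm10 has a mean above 500. As a percentage of the mean, the SD of Mcm10 was 21.7% in sgRosa26 and 22.5% in sgCcnd1, less than the 36.7% and 63.5% of E2f8 and the 56.0% and 60.9% of Uhrf1. At the low end were Rfc5 (0.20) and Slbp (0.30), whose libraries differed by less than counting error. For both E2f8 and Mcm10, library H was the highest of the 9 and A the lowest.

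**Figure D4:**
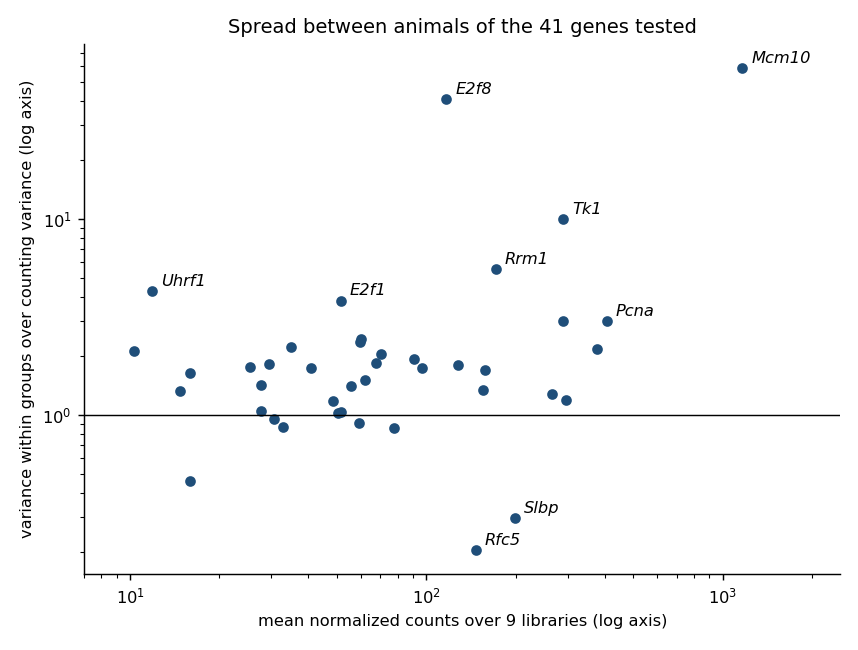
Variance of reads within groups over the counting variance, against the mean level, for the 41 genes tested (both axes log). The line at 1 marks counting error alone. Mcm10 (58.7) and E2f8 (40.82) have the highest ratios, which grow with the mean level.

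The mean log2 level of the 41 genes relative to the control mean ran from -0.09 (A) to 0.06 (B) in the controls and from 0.00077 (G) to 0.13 (E) in sgCcnd1. Without E2f8 the range in sgCcnd1 was -0.03 to 0.12. The 27 well-measured genes scored -0.09 to 0.06 in the controls and 0.06 to 0.16 in sgCcnd1, while the 14 low genes scored -0.08 to 0.06 and -0.15 to 0.11, lowest in G and H. Summed normalized counts of the 41 genes were 4681 to 5342 in the controls and 5347 to 6167 in sgCcnd1, of which Mcm10 alone made up 689 to 1198 and 1026 to 1739. Without E2f8 the sums of the groups overlapped, at 4642 to 5258 and 5188 to 5833. Library E was the highest of the 9 for 9 genes and A the lowest for 9. The E2F and cyclin E score lay between -0.19 and 0.24 in the controls and between 0.20 and 0.47 in sgCcnd1, with E2f8 and E2f7 among its 6 genes.

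The rest of the replication pathway was examined with 54 further genes, of which 47 were tested, among them the remaining ORC, polymerase, RPA and E2F genes. At an adjusted limma p under 0.05, 0 were higher and 0 lower, and at an unadjusted p under 0.05, 1 was higher and 1 lower, against 5.22% higher and 5.74% lower of all genes tested. Their median log2 fold change was 0.0046. E2f5, another E2F gene, was at 82.6 ± 10.7 in sgRosa26 (SD, n = 4) and 103 ± 14.3 in sgCcnd1 (SD, n = 5) (log2 fold change 0.31, limma unadjusted p = 0.0449, adjusted p = 0.445). Its unadjusted p was under 0.05 in 8 of 19 alternatives, and its log2 fold change was 0.24 without H (limma unadjusted p = 0.114) and 0.22 without C (limma unadjusted p = 0.151). Samhd1, which degrades deoxynucleotides, was at 477 ± 15.2 and 379 ± 50.7 (log2 fold change -0.34, limma unadjusted p = 0.00528, adjusted p = 0.283). In E it stood at 461, above the lowest control (458), and in the other 4 sgCcnd1 libraries it was at 323 to 380. Without H the log2 fold change of Samhd1 was -0.29 (limma unadjusted p = 0.0150), and the unadjusted p was under 0.05 in 20 of 20 alternatives. The cell cycle inhibitor gene Cdkn1a was at 592 ± 235 and 179 ± 51.2 (limma adjusted p = 0.113), and DESeq2 on recovered reads called it (adjusted p = 5.26e-08). Without H its log2 fold change was -1.64 (limma adjusted p = 0.341), against -1.69 with all libraries.

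Markers of other cells and of later cell cycle phases were measured in the same libraries, and their part in the values above was not tested. The 12 G2 and M phase genes summed to 125 to 297 normalized counts in the controls and 111 to 192 in sgCcnd1, with 7 of 8 tested below 0 and a median log2 fold change of -0.39. At an unadjusted limma p under 0.05, 2 of the 8 were lower, against 5.74% of all genes tested. Of the 2582 tested genes with a mean of 10 to under 50, 257 were lower at that threshold and 1703 were below 0. Of the 8 T and NK cell markers, 5 were tested and all 5 were lower at an unadjusted limma p under 0.05 (median -1.07), where 5.74% of all genes tested were lower. The 8 summed to 93.4 to 234 in the controls and to 45.0 to 71.0 in F to I, whereas library E, at 166, lay inside the control range. Of the 8 pan-leukocyte markers, 7 were lower at that unadjusted threshold (median -0.44, sums 2663 to 3217 and 2399 to 2907). The 7 B and plasma cell markers were all below 0 (median -0.41, sums 1213 to 2884 and 981 to 3017). Medians were -0.06 for 9 Kupffer and macrophage markers, 0.05 for 8 hepatocyte markers, -0.05 for 6 endothelial, -0.27 for 7 stellate, -0.31 for 5 cholangiocyte, 0.03 for 4 neutrophil and 0.06 for 4 erythroid markers tested. None of the marker and phase genes tested passed the adjusted limma test, and no listed marker in the table was at 0 in all 9 libraries.

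**Figure D5:**
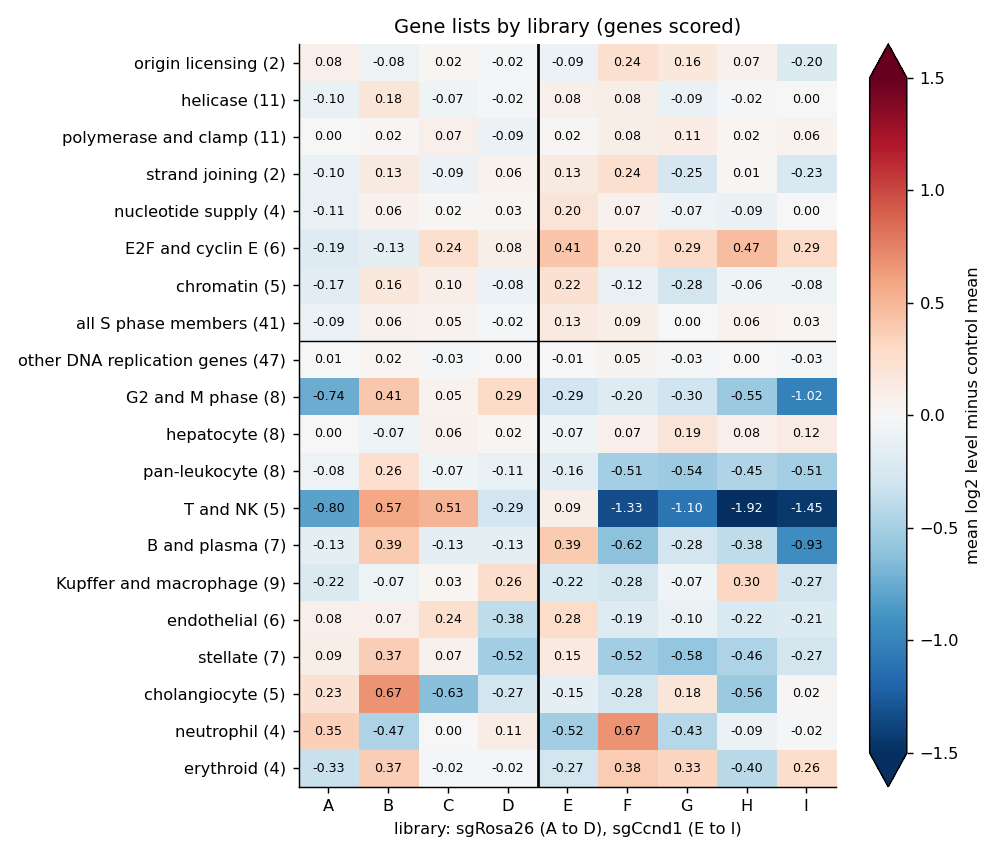
Mean log2 level of each gene list relative to the control mean, by library, with the number of genes scored. The upper rows are the roles of the S phase genes and all 41 together (-0.09 to 0.13). The lower rows are other replication genes, G2 and M phase genes and cell type markers, of which the T and NK list reaches -1.92 in H.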

How the data were processed

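The study measured bulk liver RNA of 9 mice. The authors deposited 1 table of normalized counts (a signal per gene, reads divided by a size factor for each library). Per the submitters' processing notes, the tools were Trim Galore 0.6.7, HISAT2 2.2.1, featureCounts 2.0.3, FastQC 0.74, MultiQC and DESeq2 2.11.40.8, with the builds mm10 and GRCm38. The annotation, the use of strand and the handling of reads that map to several places are not given in the sources used here. All values were whole multiples of 1 read (100% within a tolerance of 0.01), so reads were recovered, 10840595 to 20176201 per library. Columns were matched to groups by name, and carry no replicate number.

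Values were tested as log2(normalized count + 1) with limma 3.58.1 (lmFit, eBayes with trend, two-sided) in the 12993 genes that averaged 10 or more over the 9 libraries, 4 against 5, and p-values were adjusted over all of them by Benjamini-Hochberg with a threshold of 0.05. Single genes were also tested by an exact permutation of the 126 splits. The p-values set the difference between groups against the spread within groups, which includes counting error, and refer to these mice only. Rows without a symbol (1319) were kept in the fit. Alternatives were other pseudocounts, filters and scalings, edgeR 4.0.16 and DESeq2 1.42.0 on recovered reads, and leaving out each library, and the scripts were tested on simulated data. R 4.3.3 and Python 3.11.15 were used. Gene positions and transcript lengths came from GENCODE (GRCm38), sequence similarity from blastn 2.17.0, and promoters from RefSeq. Protein sequences were not used here.

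The genes, their role groups and the other lists were chosen with earlier results of these data known. By rule, the text names the genes of the list with an unadjusted p under 0.05 or without overlap, Mcm2 to Mcm7, in each role the 2 most abundant and the 1 with the largest change, those beside the filter, and other pathway genes with an unadjusted p under 0.05. Other genes of the list were named after their values were seen, to account for the whole list.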

Additional observations from a re-analysis of the deposited data

Results flagged for a closer look

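Of 92 groups of values (46 genes in each group of mice), 5 held 1 library far from the rest by Dixon's test at the 95% level, where chance gives 4.6. In sgCcnd1, E2f8 was at 335 normalized counts in H and at 92.2 to 159.6 in the other 4. In sgCcnd1, Prim1 was at 68.1 in I, with the others at 44.8 to 49.98. Rfc5 in sgCcnd1 was at 141 in G, beside 148 in each of the others, a gap smaller than counting error. In sgRosa26, Orc6 was at 68.4 in B and at 57.8 to 58.3 in the others. Orc1 in sgRosa26 was at 4.92 in A, which is 4 reads, and at 1.75 to 1.94 in the others.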

How the results depend on the processing

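In all 20 alternatives 0 genes of the list passed the adjusted test in either direction, and their median log2 fold change stayed between 0.014 and 0.078. No paired analysis was possible because no column of the table names a replicate. The alternatives without library H in edgeR and DESeq2, and the median without E2f8, were chosen after seeing the data. Of 556 comparisons for 29 named genes, 516 kept their direction and side of the threshold. The 516 include DESeq2 comparisons without an adjusted p, for which only the direction could be compared. The cause of the differences below was not tested.

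Genes of the list lower at an unadjusted p under 0.05 numbered 1 (Rfc2) with no filter, with a minimum mean of 50 or 100, with quantile normalization, with 75th percentile rescaling and in edgeR, and 0 to 2 when 1 library was left out. Those higher numbered 2 (E2f8 and Mcm10) with no filter, a minimum mean of 100, 75th percentile rescaling, edgeR and DESeq2. With quantile normalization they were E2f8, Pola1 and Rfc3. They numbered 1 (E2f8) in edgeR and in DESeq2 without H, and 1 to 4 with 1 library left out, being 1 without D, F, H or I. Among all genes, those lower after adjustment numbered 2 with quantile normalization, 76 in DESeq2, 0 in edgeR without H, 25 in DESeq2 without H, and 0 to 2 with 1 library left out. Those higher numbered 41 in DESeq2 and 16 in DESeq2 without H. The licensing median was -0.063 at a minimum mean of 50 and 0.11 with quantile normalization. The chromatin median was 0.062 at a minimum mean of 50 or 100, 0.041 with quantile normalization, and -0.18 to 0.074 with 1 library left out. The polymerase and clamp median was -0.0090 to 0.11 with 1 library left out, 0.11 being without C.

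Several small log2 fold changes changed sign. With quantile normalization Mcm2 was at 0.066, Mcm6 at 0.035, Orc6 at 0.0063, Pcna at -0.0068 and Uhrf1 at 0.041, and with 75th percentile rescaling Pcna was at -0.0031. Without H, edgeR gave 0.073 for Mcm2, 0.014 for Mcm6, 0.00024 for Rrm1 and 0.011 for Uhrf1, and DESeq2 gave 0.078 for Mcm2, 0.021 for Mcm6 and 0.0045 for Rrm1. With 1 library left out, the ranges were -0.11 to 0.16 for Gt(ROSA)26Sor, -0.14 to 0.060 for Mcm2, -0.019 to 0.16 for Mcm3, -0.083 to 0.20 for Mcm4, -0.13 to 0.015 for Mcm6, -0.13 to 0.0015 for Orc6, -0.039 to 0.077 for Pcna, -0.12 to 0.11 for Rrm1, -0.11 to 0.20 for Tk1 and -0.40 to 0.13 for Uhrf1. E2f7 fell under the filter in 2 of these 9 fits. Depth limits the 5 untested genes most, at 1 to 14 reads per library.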
